A study of Mus musculus with 4 samples.

Results

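The 32 genes described here encode the enzymes that build and break down heme, the proteins that bring iron into the cell, store it and let it out, and part of the machinery that assembles iron-sulfur clusters. A gene was included where a probe set of the array carried its symbol and no other, and its value is that of the brightest such probe set by mean signal. All 32 were found among 18194 genes with such a probe set, and 31 of them were bright enough to be tested among 12378 tested genes. The gene left out was Heph. MN1 leukemic samples (n = 2) were total RNA from bone marrow of C57BL/6J mice with leukemia driven by MN1, a transcriptional coregulator. The gene had been put by retrovirus into marrow taken 4 days after 150 mg/kg fluorouracil, stimulated for 48 hours with interleukin-6, interleukin-3 and stem cell factor, and sorted for GFP, and the cells were then transplanted into recipients given 750 cGy of irradiation, with a supporting graft of normal marrow. Gr1/Mac1 samples (n = 2) were marrow cells of healthy C57BL/6J mice that carried Gr1 and Mac1 (CD11b), surface antigens of granulocytes and monocytes. The labels attach 1 protocol text to all 4 samples; that it describes the leukemic group alone was inferred here from its mention of MN1 and of healthy mice. They do not say whether leukemic marrow was sorted again before RNA was made, so it can hold normal marrow cells, and since neither group is of normal immature cells, leukemia and immaturity cannot be told apart.

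Heme is made in an ordered chain of enzymes that begins and ends in the mitochondrion. The chain starts when 5-aminolevulinate synthase joins glycine to succinyl-CoA, and it ends when ferrochelatase puts iron into protoporphyrin. Developing red cells make most of the body's heme and take up iron bound to transferrin, while macrophages recover iron by breaking heme down with heme oxygenase and release it through ferroportin. Granulocytes and monocytes make heme for cytochromes, for myeloperoxidase and for the oxidase of the respiratory burst.

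Signals are MAS5 values, linear intensities on the authors' scale. A log2 fold change is MN1 leukemic minus Gr1/Mac1 on the scale of log2(signal + 16), where changes of dim genes come out too small, and it is followed by its standard error (SE). A gene was called where its adjusted p in a limma fit across all tested genes was below 0.05. Of the 31 tested members, 14 were called higher and 8 lower in leukemic marrow, and 9 were not called. Without leukemic replicate 2 the counts were 10 higher and 5 lower. On the scale of the hybridization controls, described below, they were 10 higher and 12 lower, with a median of -0.43. Of the 12409 genes tested on that scale, 1029 were called higher and 6104 lower, with a median of -1.02. Calls were common on the authors' scale too: with all 4 arrays, 43.4% of all tested genes were called in either direction, 27.5% higher and 15.9% lower. The median log2 fold change was 0.88 over the tested members and 0.28 over all tested genes. The arrays of the groups did not overlap for 28 of the 31 members, against 74.2% of all tested genes.

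**Figure D1:**
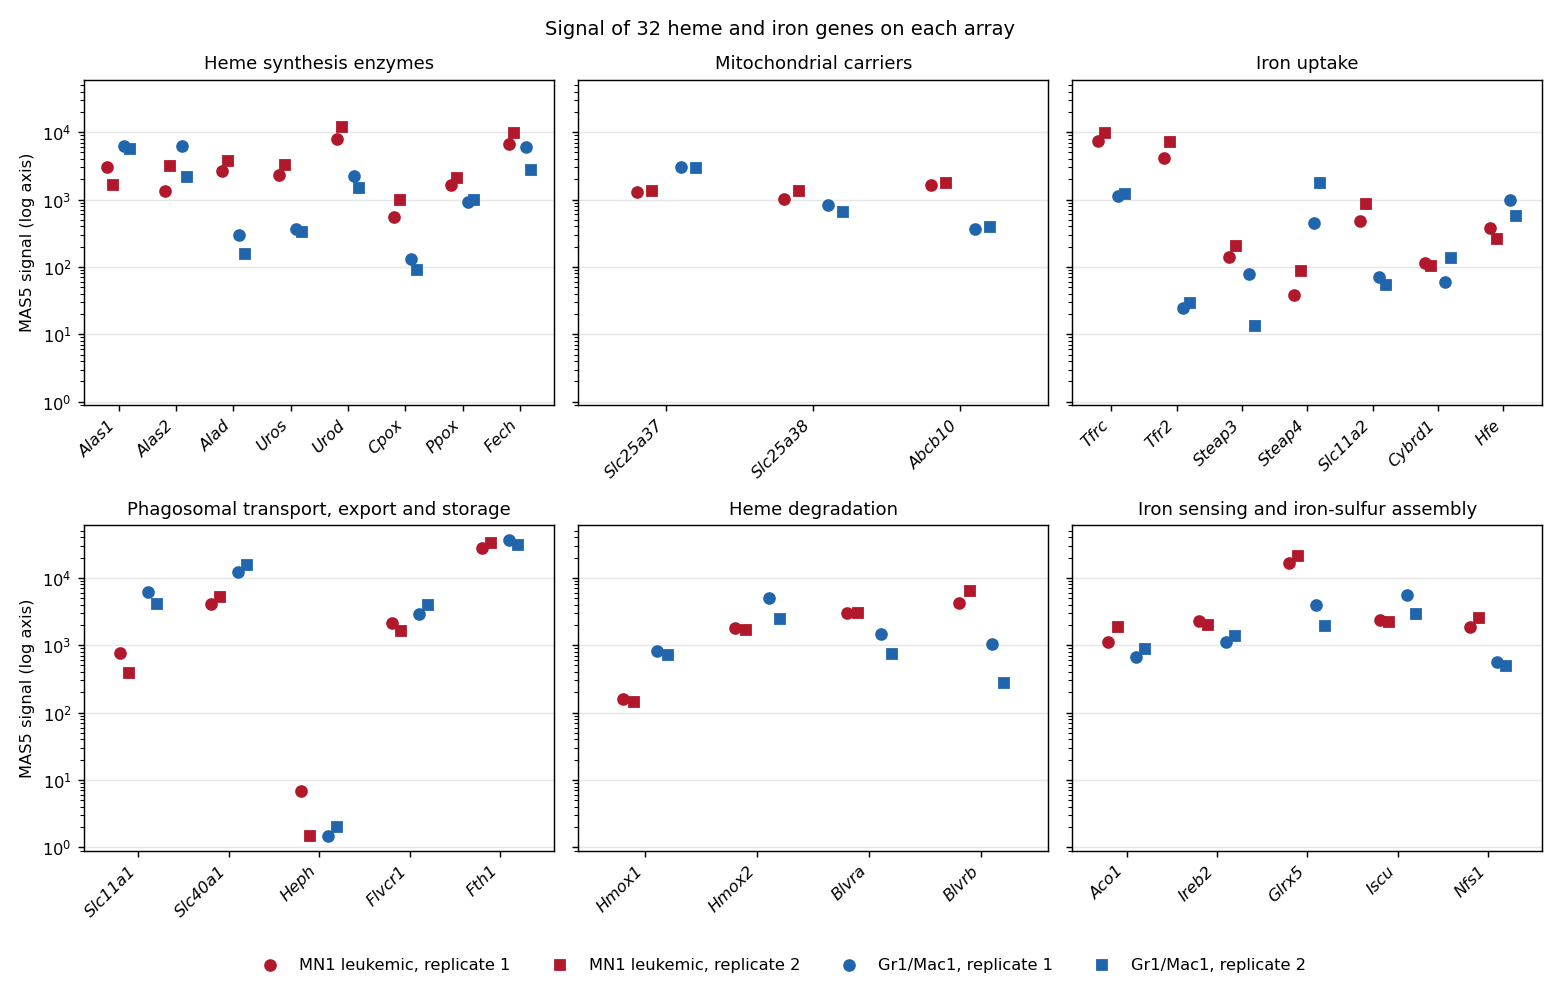
MAS5 signal (log axis) of each of the 32 genes on each array, in panels by role; red is MN1 leukemic and blue Gr1/Mac1, circles are replicate 1 and squares replicate 2. Tfr2 reads 4198 or more on both leukemic arrays and at most 29.4 on both Gr1/Mac1 arrays, and Heph reads at most 6.76 on every array.

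The comparison rests on how the arrays were scaled and on what the RNA held. Every array had the same mean signal after trimming, 500.003 to 500.004, but the hybridization controls, which are spiked in at the same amount, had a geometric mean of 11918 and 8949.8 on the leukemic and 4044 and 4168 on the Gr1/Mac1 arrays. When arrays were rescaled to these controls with a mean factor for each group, the median of all genes moved to -1.02. Of the 14 members called higher, 12 stayed above 0 on that scale. The 8 called lower stayed below 0, but this was fixed in advance, as the factor moves every gene downward. Such a factor shifts all genes by about the same amount, so it leaves the order among genes nearly as it was. Beta-actin probe sets at the 3′ end over those at the 5′ end gave 3.28 and 3.09 on leukemic and 1.32 and 1.39 on Gr1/Mac1 arrays, and the part of these differences in the results was not tested. The labelled cell types were checked by markers. Itgam, which encodes CD11b, read 584 and 306 in leukemic marrow and 4288 and 4407 in Gr1/Mac1 cells, and all 7 tested progenitor markers were called higher in leukemic marrow, with Cd34 at 6.38 and Gata2 at 5.95 and list sums of 45122 and 43271 against 4215 and 4975. Of 10 tested neutrophil markers, 4 were called lower, Itgam (-3.31) and Cxcr2 (-2.65) by the most, and the list summed to 451626 and 260596 in leukemic marrow and 441142 and 345375 in Gr1/Mac1 cells. Of all tested genes 27.5% were called higher and 15.9% lower. The granule gene Camp stayed at 60226 and 33023 against 50474 and 37997. Ly6g, a Gr1 antigen, was not analysed here.

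Most enzymes of the heme chain were higher in leukemic marrow, but not those of its first step. Of the 8 heme synthesis enzymes, 5 were called higher and 1 lower, against 27.5% and 15.9% of all tested genes. Alad, which joins aminolevulinate into porphobilinogen, was highest relative to Gr1/Mac1 cells, at 14.2 times their mean signal, and Alas1, the 5-aminolevulinate synthase of most tissues, was lower. Alas2, the synthase of red cells, was not called.

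Alas1 read 3085 and 1617 on the leukemic arrays, against 6154 and 5600.4 on the Gr1/Mac1 arrays. Both leukemic values lay below both Gr1/Mac1 values, and the log2 fold change was -1.39 (SE 0.33, limma adjusted p = 0.014). Its second probe set gave -2.02. The adjusted p was 0.096 without leukemic replicate 2 (-0.92) and 0.053 without Gr1/Mac1 replicate 1 (-1.32). Alas2 read 1354 and 3152 on the leukemic arrays, against 6164 and 2176 on the Gr1/Mac1 arrays. The groups overlapped, the single highest value was Gr1/Mac1 replicate 1, and the log2 fold change of -0.82 (SE 0.56) did not pass (limma adjusted p = 0.28). Rescaled to the hybridization controls Alas2 passed as lower (-2.14, adjusted p = 0.017).

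The next enzymes of the chain were called higher. Alad read 2696 and 3761 in leukemic marrow, against 298 and 156 in Gr1/Mac1 cells, a log2 fold change of 3.78 (SE 0.35, limma adjusted p = 6.0e-04). Uros, which closes the porphyrin ring, read 2331 and 3302 against 371 and 332, with 2.93 (SE 0.27, limma adjusted p = 5.6e-04). In both genes the lowest leukemic signal was several times the highest Gr1/Mac1 signal. Urod, which removes carboxyl groups from the ring, read 8040.0 and 12049.9 against 2261 and 1471 (2.42, SE 0.31, limma adjusted p = 0.0016). Cpox, the enzyme of the next step, read 556 and 991 against 133 and 89.3 (2.60, SE 0.39, limma adjusted p = 0.0025). All 3 kept probe sets of Cpox were called higher, at 2.60 to 3.22. The dimmest of them read 168 and 250 against 25.45 and 4.11. Both of its Gr1/Mac1 signals lay below 47.6, the lowest mean signal of a tested probe set. It was thus tested through its leukemic signal, and the size of its difference depends on the pseudocount. The dimmer probe set of Alad, at 64.5 and 142 against 33.8 and 15.2, did not pass (1.52, adjusted p = 0.080 over the genes left when probe sets with the suffixes of shared sequence were dropped).

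Of the last enzymes, Ppox was called and Fech was not. Ppox, which makes protoporphyrin, read 1623 and 2101 on leukemic arrays, against 922 and 995 on Gr1/Mac1 arrays, and was called higher at 0.94 (SE 0.25, limma adjusted p = 0.020). That call was lost without leukemic replicate 1 (1.12, adjusted p = 0.063) or leukemic replicate 2 (0.75, 0.21) and with every array at the same median (0.62, 0.18), and the value turned to -0.38 on the scale of the hybridization controls. Fech, the ferrochelatase, read 6596 and 9837 against 6071 and 2714. The arrays did not overlap, but Gr1/Mac1 replicate 1 came close to leukemic replicate 1, and 0.99 (SE 0.41) did not pass (limma adjusted p = 0.094). Without Gr1/Mac1 replicate 1 it passed (1.56, adjusted p = 0.013), and on the scale of the hybridization controls the value was -0.34. When each probe set was tested, the brightest of Fech again missed (adjusted p = 0.11), while the next brightest gave 1.39 (0.021) and 1.40 (0.014). A further probe set of Fech, below the filter on low signals, read 3.93 and 9.94 against 49.1 and 12.8.

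**Figure D2:**
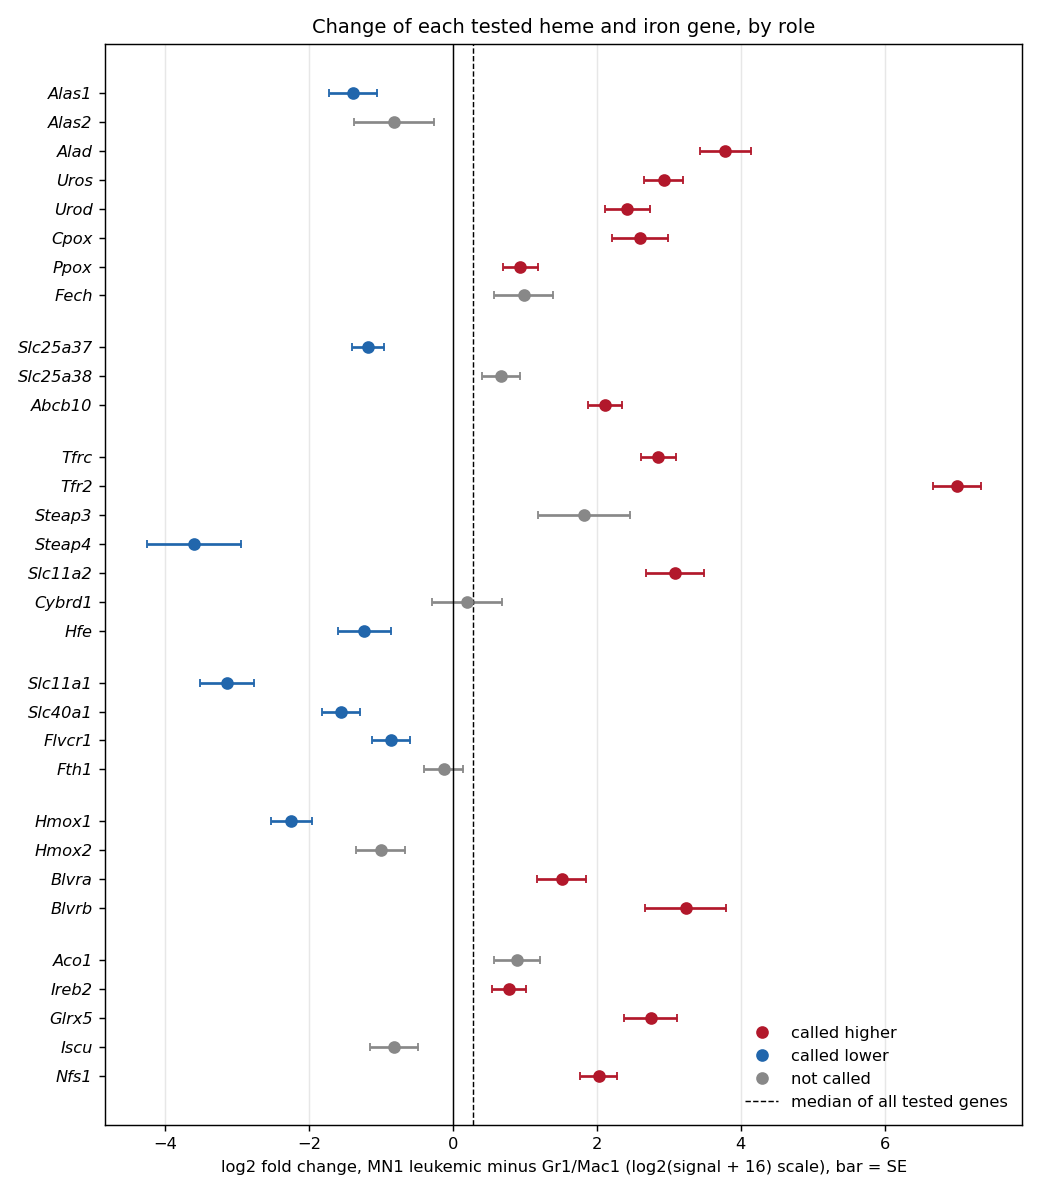
Log2 fold change (MN1 leukemic minus Gr1/Mac1) of the 31 tested genes, grouped by role from top to bottom, with the SE as bar; red was called higher, blue lower and grey not called, and the dashed line is the median of all tested genes, 0.28. In the top block Alas1 and Alas2 lie left of 0 and the 6 later enzymes right of it.

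Promoter sequence of the heme and iron genes was read from RefSeq windows of mouse build GRCm38.p6, which had an entry for 25 of the 32 members. The 250 bases before each start were searched on both strands for AGATAA or TGATAA, core words of the motif of GATA factors, and for CACGTG, an E-box word that MYC with MAX and the USF factors bind. A GATA word was found in 5 of the 25 genes (Alas2, Uros, Cpox, Tfr2 and Steap3) and in 13.2% of member windows, against 16.6% of all 32851 windows. CACGTG was found in 3 of the 25 genes (Alad, Urod and Uros) and in 10.5% of member windows, against 6.02% of all windows. The share with a GATA word is therefore no larger among member windows than at large, and a match is a description of letters only. The sequences of 4 genes with a GATA word are printed because they include Alas2, which was not called, and 3 genes that were called higher. The matched word is in capitals, and each run is read 5′ to 3′ along the gene's strand.
Alas2, chrX:150547167-150547416, plus strand: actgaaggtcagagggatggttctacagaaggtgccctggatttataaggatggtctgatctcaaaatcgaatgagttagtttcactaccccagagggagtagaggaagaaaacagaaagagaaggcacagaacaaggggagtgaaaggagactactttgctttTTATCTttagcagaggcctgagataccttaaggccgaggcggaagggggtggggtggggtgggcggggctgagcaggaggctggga
Uros, chr7:133702501-133702750, minus strand: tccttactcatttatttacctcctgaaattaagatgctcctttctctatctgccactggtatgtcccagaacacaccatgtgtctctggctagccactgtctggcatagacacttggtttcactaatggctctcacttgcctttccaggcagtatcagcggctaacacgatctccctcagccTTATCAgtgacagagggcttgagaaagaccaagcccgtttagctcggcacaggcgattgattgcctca
Cpox, chr16:58669958-58670207, plus strand: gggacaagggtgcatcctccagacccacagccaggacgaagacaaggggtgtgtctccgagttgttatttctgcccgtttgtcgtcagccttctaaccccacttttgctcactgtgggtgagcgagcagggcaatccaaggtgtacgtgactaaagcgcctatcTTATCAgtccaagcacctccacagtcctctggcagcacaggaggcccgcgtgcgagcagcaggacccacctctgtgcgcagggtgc
Tfr2, chr5:137570725-137570974, plus strand: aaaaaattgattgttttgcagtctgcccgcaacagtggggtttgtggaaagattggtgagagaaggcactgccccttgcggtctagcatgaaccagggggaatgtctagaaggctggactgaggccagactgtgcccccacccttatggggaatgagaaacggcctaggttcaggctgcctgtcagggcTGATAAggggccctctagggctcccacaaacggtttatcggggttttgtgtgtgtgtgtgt

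In Alas2 and in Cpox the word begins 86 bases before the start, in Uros 68 and in Tfr2 61. Uros has another RefSeq start with no GATA word in its window, and Tfr2 has other starts whose windows hold none. The next runs show CACGTG in capitals for Alad and Urod, a pair of enzymes called higher in leukemic marrow, where it begins 28 and 49 bases before the start.
Alad, chr4:62519910-62520159, minus strand: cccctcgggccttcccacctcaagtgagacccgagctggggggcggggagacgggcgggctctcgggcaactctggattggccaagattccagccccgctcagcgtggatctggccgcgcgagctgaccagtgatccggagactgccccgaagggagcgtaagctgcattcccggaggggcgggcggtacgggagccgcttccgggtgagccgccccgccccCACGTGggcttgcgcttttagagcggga
Urod, chr4:116994414-116994663, minus strand: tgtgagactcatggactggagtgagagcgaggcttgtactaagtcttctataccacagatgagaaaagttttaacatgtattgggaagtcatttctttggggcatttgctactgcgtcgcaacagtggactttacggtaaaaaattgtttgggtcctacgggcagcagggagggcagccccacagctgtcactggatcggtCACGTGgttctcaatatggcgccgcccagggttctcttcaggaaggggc

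The mitochondrial carriers of heme synthesis did not move together. Slc25a37, or mitoferrin 1, which brings iron into the mitochondrion of red cell precursors, was lower in leukemic marrow. Abcb10, an inner membrane transporter known to stabilise mitoferrin 1, was higher. Slc25a37 read 1287 and 1335 on leukemic arrays, against 2994 and 2983 on Gr1/Mac1 arrays (-1.18, SE 0.22, limma adjusted p = 0.0051). Replicates of each group lay close together, and the groups were far apart. Abcb10 read 1618 and 1777 against 363 and 396 (2.11, SE 0.24, limma adjusted p = 0.0011), and its second kept probe set gave 2.14. Slc25a38, a glycine carrier, read 1021 and 1358 against 819 and 659 and did not pass (0.67, SE 0.27, limma adjusted p = 0.084); on the scale of the hybridization controls the value was -0.64.

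Of 7 iron uptake genes, against a share of 27.5% higher and 15.9% lower over all tested genes, 3 were called higher and 2 lower. Those higher were the transcripts of both transferrin receptors and of the endosomal iron carrier. Tfrc encodes transferrin receptor 1, which brings iron-loaded transferrin into cells. It read 7454 and 9744 in leukemic marrow, against 1118 and 1212 in Gr1/Mac1 cells (2.85, SE 0.24, limma adjusted p = 4.3e-04). Its mean leukemic signal was 7.38 times the Gr1/Mac1 mean, and a second kept probe set gave 2.95. The array also carries 3 control probe sets along the Tfrc transcript. That for the 3′ end read 222 and 329 against 29.6 and 12.1, that for the middle 87.5 and 29.5 against 5.46 and 3.88, and that for the 5′ end 49.3 and 39.4 against 4.25 and 38.6. Most signals of the middle and 5′ sets lay below the level of the filter and have no reliable order, and none of the 3 was tested.

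Tfr2, a second transferrin receptor known from liver and red cell precursors, had the largest difference of all members. It read 4198 and 7128 on leukemic arrays, against 24.6 and 29.4 on Gr1/Mac1 arrays (7.00, SE 0.33, limma adjusted p = 1.1e-04). Both Gr1/Mac1 signals lay below 47.6, the lowest mean signal that the filter kept, so Tfr2 entered the test through its leukemic signal. The other probe set of Tfr2 gave 1975 and 3244 against 57.3 and 75.9 (4.96), which differs in size but not in direction.

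Slc11a2 encodes the divalent metal transporter that moves iron out of the endosome. Its brightest probe set read 477 and 872 in leukemic marrow, against 71.1 and 53.7 in Gr1/Mac1 cells (3.09, SE 0.40, limma adjusted p = 0.0016). When each of its 4 probe sets was tested, every one was called higher, at 1.38, 2.87, 3.09 and 4.13. In Gr1/Mac1 cells the set at 2.87 read 2.11 and 1.42, and that at 4.13 read 14.3 and 10.4. All of these signals lay below 47.6, the lowest mean signal kept. Both sets were thus tested through their leukemic signal, and the sizes of their differences depend on the pseudocount. The probe set with the smallest change read 418 and 554 against 183 and 168, and it became the brightest without leukemic replicate 2 (1.18, adjusted p = 0.13) and on the scale of the hybridization controls (0.12, 0.75).

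Of the 3 metal reductases, which reduce iron for transport, only Steap4 was called. Steap3, the ferrireductase of red cell endosomes, read 138 and 202 on leukemic arrays, against 77.5 and 13.1 on Gr1/Mac1 arrays. The arrays did not overlap, yet the spread between the Gr1/Mac1 replicates was wide and the change missed the threshold (1.81, SE 0.64, limma adjusted p = 0.057). Without Gr1/Mac1 replicate 1 the value was 2.66, against the single array at 13.1. The Gr1/Mac1 mean of 45.3 lay below 47.6, the lowest mean signal kept. Steap3 was thus tested through its leukemic signal, and its value was 2.34 with a pseudocount of 1 and 1.15 with 64. Steap4, a metalloreductase known to rise in inflammation, read 38.6 and 87.7 against 448 and 1762. It was called lower (-3.59, SE 0.65, limma adjusted p = 0.0050), although the Gr1/Mac1 replicates themselves were far apart and 1 leukemic signal lay below the level of the filter. Cybrd1, the ferrireductase of the gut, was dim and overlapped between groups (115 and 102 against 60.6 and 137; 0.20, SE 0.49, limma adjusted p = 0.77). Without Gr1/Mac1 replicate 1 its value was -0.30.

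Hfe, the membrane protein altered in hereditary iron overload, read 372 and 258 in leukemic marrow, against 995 and 561 in Gr1/Mac1 cells. Both leukemic values were below both others, and it was called lower (-1.23, SE 0.36, limma adjusted p = 0.032). The call did not survive leaving out leukemic replicate 1 (-1.48, adjusted p = 0.056), leukemic replicate 2 (-0.98, 0.19) or Gr1/Mac1 replicate 1 (-0.82, 0.099).

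Of the genes of phagosomal transport, export and storage, 3 of 4 tested were called lower in leukemic marrow, against 15.9% of all tested genes. Slc11a1, or NRAMP1, which pumps metal ions out of the phagosome of macrophages and neutrophils, read 775 and 388 on leukemic arrays, against 6109.9 and 4032 on Gr1/Mac1 arrays. The Gr1/Mac1 mean was 8.72 times the leukemic mean (-3.14, SE 0.38, limma adjusted p = 0.0013). Its relative Slc11a2 thus differed between the groups in the opposite direction. The Gr1/Mac1 cells were sorted on myeloid antigens, and the part of cell type in these differences was not tested.

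Slc40a1 encodes ferroportin, the iron exporter. It read 4138 and 5256 in leukemic marrow, against 12053 and 15662 in Gr1/Mac1 cells (-1.56, SE 0.26, limma adjusted p = 0.0037), and its second probe set, at 486 and 680.3 against 2562 and 2421, gave -2.08. No array of one group reached those of the other in either probe set. Flvcr1, known as a heme exporter, had a dimmer kept probe set that did not pass when each was tested (-0.80, limma adjusted p = 0.27). At its brightest probe set Flvcr1 read 2129 and 1637 against 2914 and 3963 (-0.86, SE 0.27, limma adjusted p = 0.036). Its call was lost without leukemic replicate 1 (-1.05, adjusted p = 0.074), leukemic replicate 2 (-0.67, 0.25) or Gr1/Mac1 replicate 2 (-0.64, 0.096) and with quantile normalization (-0.80, 0.055).

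Fth1, the heavy chain of the storage protein ferritin, was bright on every array and overlapped between groups at its brightest probe set. It read 28149 and 33276 against 36137 and 31029.6 (-0.13, SE 0.27, limma adjusted p = 0.73). On the scale of the hybridization controls it passed as lower (-1.46, adjusted p = 0.0038). The ferritin light chain Ftl1 is named here only by probe sets shared with a pseudogene, the brightest of which read 8985 and 10322 in leukemic marrow and 23589 and 17776 in Gr1/Mac1 cells. Heph, a copper ferroxidase that works with ferroportin in the gut, read 6.76 and 1.498 against 1.486 and 2.003, below the filter, and was not tested.

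Of the 4 genes of heme breakdown, 1 was called lower and 2 higher, against 15.9% and 27.5% of all tested genes. Hmox1, the inducible heme oxygenase that opens the heme ring and frees its iron, read 157 and 145 on leukemic arrays, against 827 and 725 on Gr1/Mac1 arrays. The replicates agreed closely and the Gr1/Mac1 mean was 5.14 times the leukemic mean (-2.24, SE 0.28, limma adjusted p = 0.0015). Hmox2, the constitutive form, read 1794 and 1707 against 5009 and 2486 and missed the threshold (-1.01, SE 0.35, limma adjusted p = 0.052). It passed as lower without Gr1/Mac1 replicate 2 (-1.51, adjusted p = 0.0071) and with every array at the same median (-1.33, 0.035).

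Both genes named as biliverdin reductases were higher in leukemic marrow. Blvrb, a reductase of flavins and of the beta isomer of biliverdin that is abundant in red cells, read 4219 and 6404, against 1036 and 277 in Gr1/Mac1 cells (3.23, SE 0.57, limma adjusted p = 0.0043). Blvra, which reduces the biliverdin made by heme oxygenase to bilirubin, read 3009 and 3054 against 1489.7 and 747 (1.51, SE 0.34, limma adjusted p = 0.012). In both genes Gr1/Mac1 replicate 1 was above replicate 2, and neither group reached the other. The Blvra call was lost without leukemic replicate 2 (1.497, adjusted p = 0.054), with every array at the same median (1.19, 0.052) and on the scale of the hybridization controls (0.19, 0.65).

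Among iron-sulfur assembly genes, the sulfur donor and the transfer protein were higher, and the scaffold was not called. Glrx5, the mitochondrial glutaredoxin that passes on new clusters and is required for heme synthesis in zebrafish red cells, read 16429 and 21252 on leukemic arrays, against 3965 and 1938 on Gr1/Mac1 arrays (2.75, SE 0.37, limma adjusted p = 0.0017). Nfs1, the cysteine desulfurase, read 1892 and 2536 against 558 and 498 (2.02, SE 0.26, limma adjusted p = 0.0015). Both were several times brighter in leukemic marrow, though the other kept probe sets of Nfs1 gave 0.89 and 1.48 and did not pass. Iscu, the scaffold protein, read 2351 and 2205 against 5577 and 2907 (-0.82, SE 0.33, limma adjusted p = 0.087). It passed as lower without Gr1/Mac1 replicate 2 (-1.29, adjusted p = 0.0095).

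Of the iron sensors, Ireb2 was called higher and Aco1 was not called. Ireb2 encodes iron regulatory protein 2, which binds the messages of Tfrc and ferritin when iron is low. It read 2253 and 2022 in leukemic marrow, against 1116 and 1376 in Gr1/Mac1 cells (0.78, SE 0.24, limma adjusted p = 0.035). Leaving out leukemic replicate 1 (0.70, adjusted p = 0.22), leukemic replicate 2 (0.85, 0.16) or Gr1/Mac1 replicate 1 (0.63, 0.062) ended that call, as did the same median for every array (0.46, 0.29), and the value turned to -0.54 on the scale of the hybridization controls. Aco1, iron regulatory protein 1 when it lacks its cluster, read 1111 and 1851 against 664 and 891 and was not called (0.88, SE 0.32, limma adjusted p = 0.062); on the scale of the hybridization controls the value was -0.43.

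**Figure D3:**
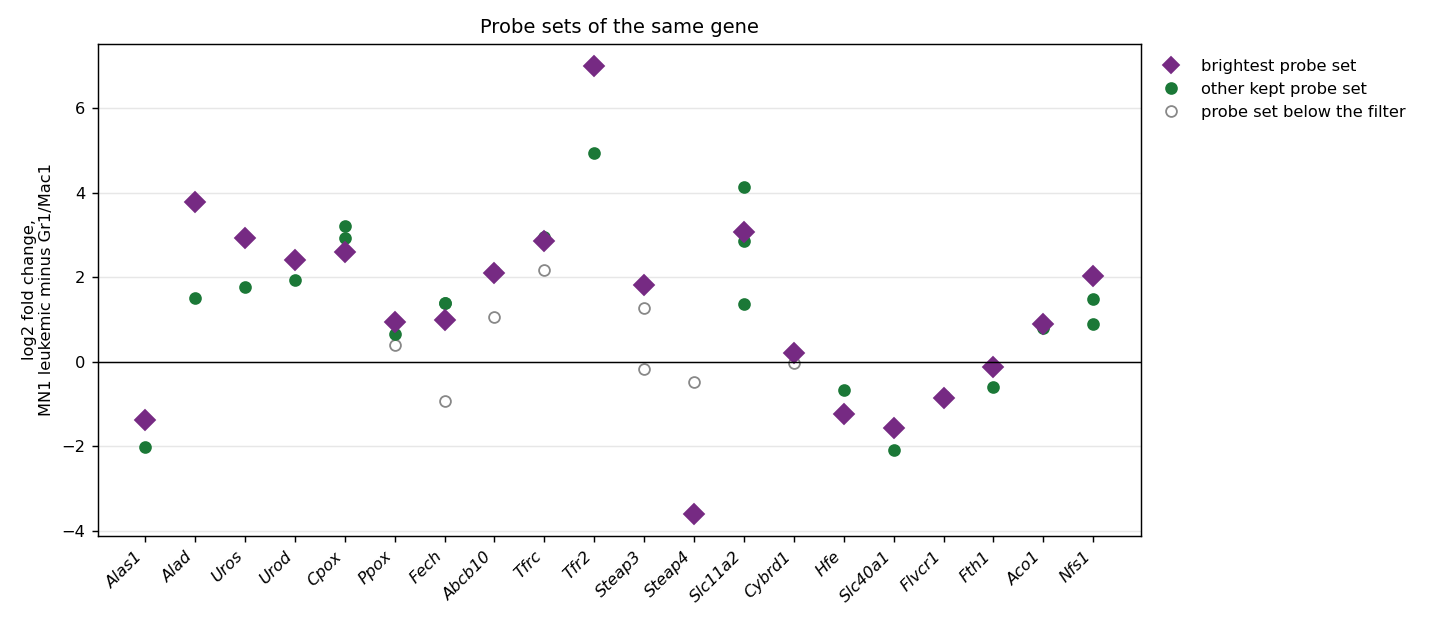
Log2 fold change (MN1 leukemic minus Gr1/Mac1) of each probe set for the 20 members with several; diamonds are the brightest probe set, filled circles other probe sets kept by the filter and open circles those below it, and the control probe sets of Tfrc are left out. Filled circles lie on the same side of 0 as the diamond in every gene shown, while Fech, Steap3 and Cybrd1 each have an open circle on the other side.

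The members had 66 probe sets in all, 3 of them controls of the manufacturer, and 53 were bright enough to be tested singly. Of these, 25 were called higher and 10 lower, against 34.9% of all kept probe sets called in either direction. No member had kept probe sets called in opposite directions. Of the 17 members with several kept probe sets, those whose probe sets differed most in size were Slc11a2, Alad and Tfr2.

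Markers of red cell precursors moved with the members that were higher. Of 14 tested erythroblast markers, 12 were called higher in leukemic marrow and 1 lower, against 27.5% and 15.9% of all tested genes. Their median was 4.37. The sum of the list's signals was 36542 and 59451 on leukemic arrays and 4484 and 3365 on Gr1/Mac1 arrays. Cldn13, a claudin of mouse red cell precursors, gave 6.99 and Klf1, a transcription factor of red cells, 6.82, while the globin gene Hba-a2 gave -1.28, from 975 and 429.7 against 1699 and 1503. In Gr1/Mac1 cells Cldn13 averaged 35.7, Rhag 27.0 and Kel 17.7, all below the lowest mean signal kept (47.6). These genes are among the 12 called higher. They were tested through their leukemic signal, and the sizes of their differences depend on the pseudocount. Globin probe sets shared by several genes, which name none of them, were bright in both groups, at 5518 to 50206 in leukemic marrow and 10813 to 45578 in Gr1/Mac1 cells. In these bulk samples more cells of a type and more RNA per cell cannot be told apart, and the part of red cell precursors in the changes of the heme genes was not tested.

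**Figure D4:**
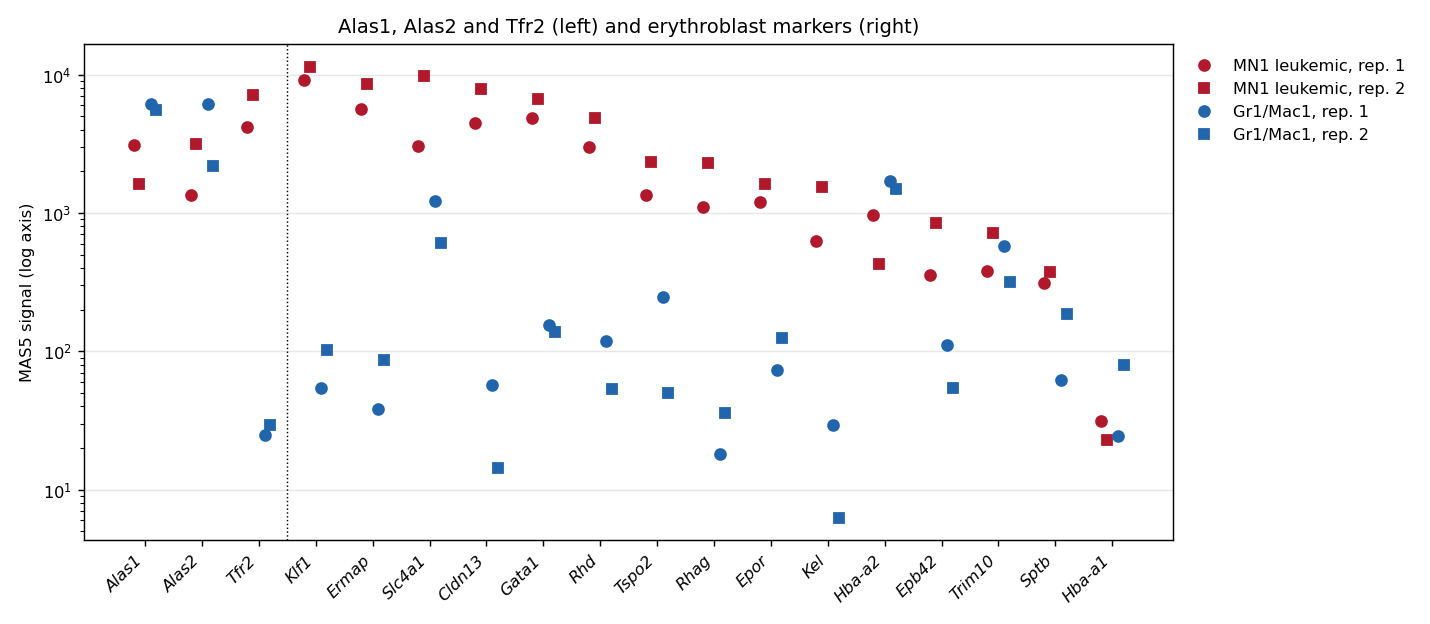
MAS5 signal (log axis) of Alas1, Alas2 and Tfr2 (left of the dotted line) and of the 15 erythroblast markers with a probe set (right) on each array; red is MN1 leukemic and blue Gr1/Mac1, circles replicate 1 and squares replicate 2. Klf1 reads 9157 or more on both leukemic arrays and at most 101 on Gr1/Mac1 arrays, whereas Alas2 and Hba-a2 do not lie higher in leukemic marrow.

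The leukemic replicates differed from each other in the same genes. Of the 14 members called higher, 13 read higher in leukemic replicate 2 than in replicate 1, with a median log2 difference of 0.45, and the exception was Ireb2. All 12 erythroblast markers called higher also read higher in replicate 2, with a median of 0.75. Over all 3403 genes called higher the share was 68.6% and the median 0.13. The anion exchanger gene Slc4a1, for example, read 3038 and 9841 in leukemic replicates 1 and 2, against 1221 and 611 in Gr1/Mac1 cells. These are descriptions of 2 arrays, with no test. Of the 8 members called lower, 3 read higher in leukemic replicate 2, against 405 of all 1972 genes called lower (20.5%).

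Other cell types were read from marker lists as well. Of 11 tested markers of iron-recycling macrophages, 2 were called higher in leukemic marrow, Cd163 (2.32) and Mrc1 (1.16), and 4 lower, C1qc (-2.02, with a leukemic mean of 35.0, below that level too) and Adgre1 (-1.64) by the most. The sum of the list was 3685 and 2382 on leukemic and 4936 and 4899.6 on Gr1/Mac1 arrays. Cd163 is also on the pathway list below. Siglec1, which defines marrow macrophages, was near the bottom of the scale on most arrays, at 4.65 and 13.8 against 42.1 and 5.44. Of 6 tested megakaryocyte markers 2 were called higher, Gp5 (4.23, with a Gr1/Mac1 mean of 38.3, also below that level) and Itga2b (3.05), and the list summed to 4011 and 3694 against 886 and 976. The share called in either direction was 54.5% of macrophage and 33.3% of megakaryocyte markers, against 43.4% of all tested genes. The part of these cells in the lower Hmox1 and Slc40a1 signals was not tested.

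Other genes of the pathway, outside the 32, were read from a list of 45. Of these, 36 were tested, with 16 called higher, 5 lower and a median of 0.50. The share called in either direction was 58.3%, against 43.4% of all tested genes. Over all tested genes 27.5% were called higher and 15.9% lower, with a median of 0.28. The largest differences among those higher were in Slc39a8, a zinc and metal importer, at 1038 and 1928 against 53.0 and 26.3 (4.73, SE 0.43, limma adjusted p = 5.4e-04), where the Gr1/Mac1 mean of 39.6 lay below the lowest mean the filter kept, and in Lrp1, the receptor for heme bound to hemopexin, at 8173 and 8323 against 995 and 654 (3.33, SE 0.27, limma adjusted p = 3.9e-04). Bola3, a late factor of cluster assembly (2.97), and Fdx1, a ferredoxin of the mitochondrion (2.56), followed.

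The 5 genes called lower included regulators of heme and iron breakdown. Bach1, the repressor of Hmox1 that heme itself inactivates, read 3010.4 and 2956 in leukemic marrow, against 8027 and 7444 in Gr1/Mac1 cells (-1.37, SE 0.22, limma adjusted p = 0.0030). Bach1 and Hmox1 were thus both lower in leukemic marrow. Fbxl5, which marks iron regulatory protein 2 for destruction, read 2061 and 1385 against 3801 and 10947 (-1.92, SE 0.49, limma adjusted p = 0.018). The hemoglobin-binding protein gene Hp (-1.62) and Ncoa4, the receptor that sends ferritin to the lysosome (-0.92), were also called lower. Nfe2l2, the activator of Hmox1, completed the 5 at -0.91. On the scale of the hybridization controls, where 1029 of all tested genes were called higher and 6104 lower, the counts turned to 6 higher and 16 lower. Without leukemic replicate 2 they were 8 and 1, and without Gr1/Mac1 replicate 1 they were 16 and 3.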

How the data were processed

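Total RNA of mouse bone marrow was measured on 4 single-colour arrays labelled with biotin, 2 for each group. The authors deposited MAS5 signals, which are linear intensities from GCOS 1.3.0, per the submitters' processing notes. No scaling target is named in the sources used here, and detection calls were not used here. Gene symbols came from the platform annotation, where, of 45101 probe sets, 64 were controls, 34945 had 1 symbol, 932 several and 9160 none.

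Signals were taken as log2(signal + 16). Control probe sets were dropped, as were the dimmest 40% of the others by mean signal, and each gene was read from its brightest probe set. The test was limma's (version 3.58.1, R 4.3.3; two-sided, moderated by eBayes along a trend of variance with signal) on 12378 genes, with Benjamini-Hochberg adjustment over all of them and a threshold of 0.05. Residual degrees of freedom were 2 before moderation and 6.90 after it, and the median SE was 0.33. An exact permutation test of 2 arrays against 2 can give no p below 0.33, so none was run. Precision is set by having 2 arrays a group. The design text calls the arrays biological replicates.

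All 32 members are named, in order of role; of the other pathway genes the 4 called with the largest change in each direction, and of each marker list up to 2 in each direction. Some of the genes beside these (Nfe2l2, Camp and Slc4a1 among them) were chosen after their values were seen, as were the promoter words. Some genes of the pathway are not reported here. The members and lists were chosen with earlier results of these data known. Alternatives were pseudocounts of 1 and 64, other filters, scalings, probe set rules and variance models, a replicate block, a minimum of 2-fold, and each array left out in turn. Plots were made by matplotlib 3.10.9 (Python 3.11.15).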

Additional observations from a re-analysis of the deposited data

How the results depend on the processing

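Of 22 called members, 14 kept the call under every one of the 18 alternatives that gave them a value, and 20 kept their direction. The exceptions in direction were Ppox and Ireb2, both on the scale of the hybridization controls. That scale moves every gene downward, so it could not turn a member called lower. Calls were lost at least once for Alas1, Alad, Ppox, Slc11a2, Hfe, Flvcr1, Blvra and Ireb2. Over the 550 member results under alternatives, 489 kept direction and side of the threshold, 30 lost a call, 22 gained one and 9 changed sign.

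The sign changes on the scale of the hybridization controls were Ppox -0.38, Fech -0.34, Slc25a38 -0.64, Cybrd1 -0.94, Aco1 -0.43 and Ireb2 -0.54. Cybrd1 also turned to -0.10 with quantile normalization, -0.068 with every array at the same median and ran from -0.30 to 0.70 when arrays were left out in turn. On the controls' scale the group factor lowers every gene by about the same amount, so a small positive value turns negative. The median of all genes moved with the scalings, to -1.02 on the controls' scale, -0.03 at the same median and 0.09 with quantile normalization. The cause of the other sign changes of Cybrd1 was not tested.

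Leaving out arrays in turn gave 10 to 15 members higher and 5 to 9 lower. The lowest counts came without leukemic replicate 2, where 15 of the 22 calls remained. In the same way the genes changed over all, 5375 with all arrays, ran from 2812 without leukemic replicate 2 to 5499 without Gr1/Mac1 replicate 1, those higher (3403) from 1683 to 3622 and those lower (1972) from 1129 to 1890. The lone array left in a group was then assumed to vary like the other group's. With every array at the same median 2250 genes were higher, and on the controls' scale 1029 were higher and 6104 lower. The pathway genes outside the members, 16 higher and 5 lower, ran from 8 to 16 and from 1 to 5 when arrays were left out, and were 10 higher at the same median, and 6 higher and 16 lower on the controls' scale. The 5 lower genes came to 3 without a filter on low signals, without a variance trend and with a minimum of 2-fold.

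Nothing in the labels says that replicate numbers pair arrays. The deviations of same-numbered arrays correlated at -0.03 across genes, and the replicate block called 27 members (17 higher and 10 lower), the same 22 and Fech, Iscu, Hmox2, Aco1 and Steap3. After moderation that fit had 14.6 degrees of freedom, against 6.90. Signals near the bottom of the MAS5 scale, such as those of Heph and of Tfr2 in Gr1/Mac1 cells, have no reliable order, and a fold change against them depends on the pseudocount: Tfr2 was at 7.61 with a pseudocount of 1 and 5.93 with 64.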
